A study of Mus musculus with 9 samples.

Results

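The genes described are 10 genes of retinoic acid uptake, synthesis, clearance, transport and response: Rdh10, Dhrs3, Aldh1a2, Cyp26a1, Stra6, Crabp1, Crabp2, Rara, Rarb and Rarg. They were chosen by name for their place in this pathway, and all 10 were found among the 47729 genes with a deposited FPKM, a level scaled for gene length and library size. The libraries came from mouse embryonic stem cells (ESCs) kept in LIF and serum, a medium that maintains self-renewal. The cells carried a doxycycline (dox)-inducible transgene for a forced homodimer of E2A, in which FLAG-tagged mouse E47, a basic helix-loop-helix transcription factor encoded by Tcf3, is joined by a flexible linker to a further copy of E47. RNA was taken at 0 h, when no dox had been given, and after 18 h and 24 h with dox at 1 µg/ml, in 3 replicates per time point and 9 libraries in all. The transgene stood under a tetracycline-response element upstream of Hprt in 1 inducible line, and whether that line is a single clone is not given in the sources used here. All 9 libraries came from cells with this transgene, including those at 0 h, and cells without it that were given dox were not analysed here.

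Retinoic acid is made from vitamin A. Retinol taken up by the cell is oxidised to retinaldehyde and then to retinoic acid, which enters the nucleus, binds retinoic acid receptors (RARs) paired with retinoid X receptors (RXRs) on DNA, and is cleared by CYP26 enzymes. In the embryo the pathway patterns the hindbrain and spinal cord, and retinoic acid is widely used to drive ESCs out of self-renewal and into neural cells. Several of its own components, such as Cyp26a1, Rarb, Dhrs3 and Stra6, are known to be induced by retinoic acid.

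Reads on genes numbered 22028363 to 26471569 per library, and the 10 genes with the most reads took 4.63% to 5.40% of them. Tcf3, the gene for the induced factor, had a mean FPKM of 39.1 ± 1.80 at 0 h, 110.1 ± 5.52 after 18 h and 102.0 ± 7.55 after 24 h (SD, n = 3), and reads of the transgene and of the endogenous gene were not told apart. The ESC label was checked against 10 markers of embryonic stem cells, all with a mean FPKM over 0.1. Pou5f1 had a mean FPKM of 371, 289.9 and 248 at the 3 times, with all 24 h libraries below those at 0 h, whereas Nanog had 40.6, 56.8 and 73.4, with all 24 h libraries above. The summed FPKM of the 10 was lower with dox than at 0 h in 3 of 3 replicates at both times, and the groups overlapped. By limma Tdgf1 alone of the 10 passed at 18 h, downwards (log2 fold-change -1.27, adjusted p = 0.000295), and at 24 h Tdgf1 and Pou5f1 passed downwards and Nanog upwards. Under the replicate block 2 passed upwards and 4 downwards at 18 h, and 2 and 5 at 24 h. Those at 18 h included Nanog upwards (limma adjusted p = 0.000902 with the block and 0.068 without) and Pou5f1 downwards (0.00149 and 0.126). The summed FPKM of 9 early neural markers was 77.1 to 80.0 at 0 h, 108.8 to 114.8 after 18 h and 111.3 to 118.9 after 24 h, higher with dox than at 0 h in every library. Nes and Tubb3 made up most of that sum. Of the 5 neural markers tested, Foxd4 passed upwards at 18 h and Foxd4 and Sox1 at 24 h by limma, 4 passed upwards at both times with the replicate block, and none passed downwards. Sox1 had a mean FPKM of 0.351, 1.06 and 2.46. The sums of 10 endoderm markers (124.7 to 164.6 at 0 h and 152.3 to 219.0 after 24 h), of 8 mesoderm markers (2.62 to 3.83 and 2.58 to 3.28, with Msgn1 at 0 in all libraries) and of 9 fibroblast markers (7.79 to 15.8 and 8.11 to 13.2) overlapped between those times. Within replicates the endoderm sum, most of it Sparc, was higher with dox in 3 of 3 at both times. Of the 8 endoderm markers tested Col4a1 passed upwards at both times by limma, 3 did so with the replicate block, and none passed downwards. Of the 5 mesoderm markers tested none passed by limma, while with the block 1 passed downwards at 18 h, and 1 in each direction at 24 h. Of the 7 fibroblast markers tested none passed by limma at 18 h, and Pdgfrb passed upwards and Thy1 downwards at 24 h. With the block 1 of the 7 passed in each direction at 18 h, and 1 upwards and 2 downwards at 24 h. The part of these markers in the results below was not tested, and in bulk RNA fewer cells of a type and less RNA per cell cannot be told apart.

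Promoter sequence bears on these genes in 2 ways, because E2A binds E-boxes (CANNTG) and because RARs bind direct repeats of a short element. Of the 10 genes, 8 had RefSeq promoter windows (GRCm38.p6, 250 bases before to 50 bases after a start), 17 windows in all, some of which overlap within a gene. Crabp2 and Rdh10 had no entry. The E-box letters CAGGTG, or CACCTG on the other strand, were in 3 of the 17 windows and in 20.2% of all 32851 windows. The letters CAGCTG were in 4 of the 17, in Rara and Stra6, and in 16.3% of all windows. Any CANNTG, which includes both, was in 13 of the 17 and in 72.3% of all. A direct repeat spaced by 5 bases (DR5) was searched on both strands, as a pair of elements that each read AGGTCA or AGTTCA, with G also allowed as the first base. It was found in 2 of the 17 windows, in Cyp26a1 and Rarb, and in 32 of all 32851 windows (0.0974%). The same repeat spaced by 2 bases was in 0.268% of all windows, and these letters were not in the 17. The 3 stretches shown are the 120 bases before a start of the member with the largest change and of the 2 members with a DR5 match. Capitals mark CACCTG in Aldh1a2 (first base at -11 from the start) and the DR5 match in Rarb (-53) and Cyp26a1 (-32).

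Aldh1a2 (chr9:71215669-71215788, GRCm38.p6, plus strand): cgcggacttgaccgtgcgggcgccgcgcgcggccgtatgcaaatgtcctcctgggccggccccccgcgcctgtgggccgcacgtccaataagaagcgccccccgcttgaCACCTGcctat

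Rarb (chr14:16575477-16575596, GRCm38.p6, minus strand): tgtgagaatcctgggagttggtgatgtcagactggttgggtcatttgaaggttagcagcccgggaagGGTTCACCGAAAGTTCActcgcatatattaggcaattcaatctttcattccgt

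Cyp26a1 (chr19:37697688-37697807, GRCm38.p6, plus strand): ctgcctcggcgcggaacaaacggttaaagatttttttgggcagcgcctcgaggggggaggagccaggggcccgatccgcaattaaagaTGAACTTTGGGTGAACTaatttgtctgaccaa

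Before dox was added Rarg, Rara, Crabp1 and Crabp2 were the most abundant of the 10 genes, as FPKM, which is scaled for gene length. Rarg led with a mean FPKM of 28.7 ± 3.41 (SD, n = 3), and all of its libraries lay above those of Rara at 10.5 ± 0.666. Crabp1 followed at 9.71 ± 2.10, and its libraries overlapped those of Rara. Crabp2 at 6.33 ± 0.811 and Rdh10 at 3.82 ± 0.590 each stood apart from their neighbours. Cyp26a1 (1.23 ± 0.269), Dhrs3 (0.965 ± 0.383) and Aldh1a2 (0.685 ± 0.109) came next, and the libraries of neighbours in this order overlapped. Rarb (0.140 ± 0.0718) and Stra6 (0.0428 ± 0.0284) were lowest and overlapped each other. By 24 h the order had changed in the middle. Rarg was still first and Rarb and Stra6 last, whereas Crabp2 had the second mean, with libraries that overlapped those of Crabp1. Aldh1a2 had moved above Dhrs3 and Cyp26a1 with no overlap between libraries.

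**Figure D1:**
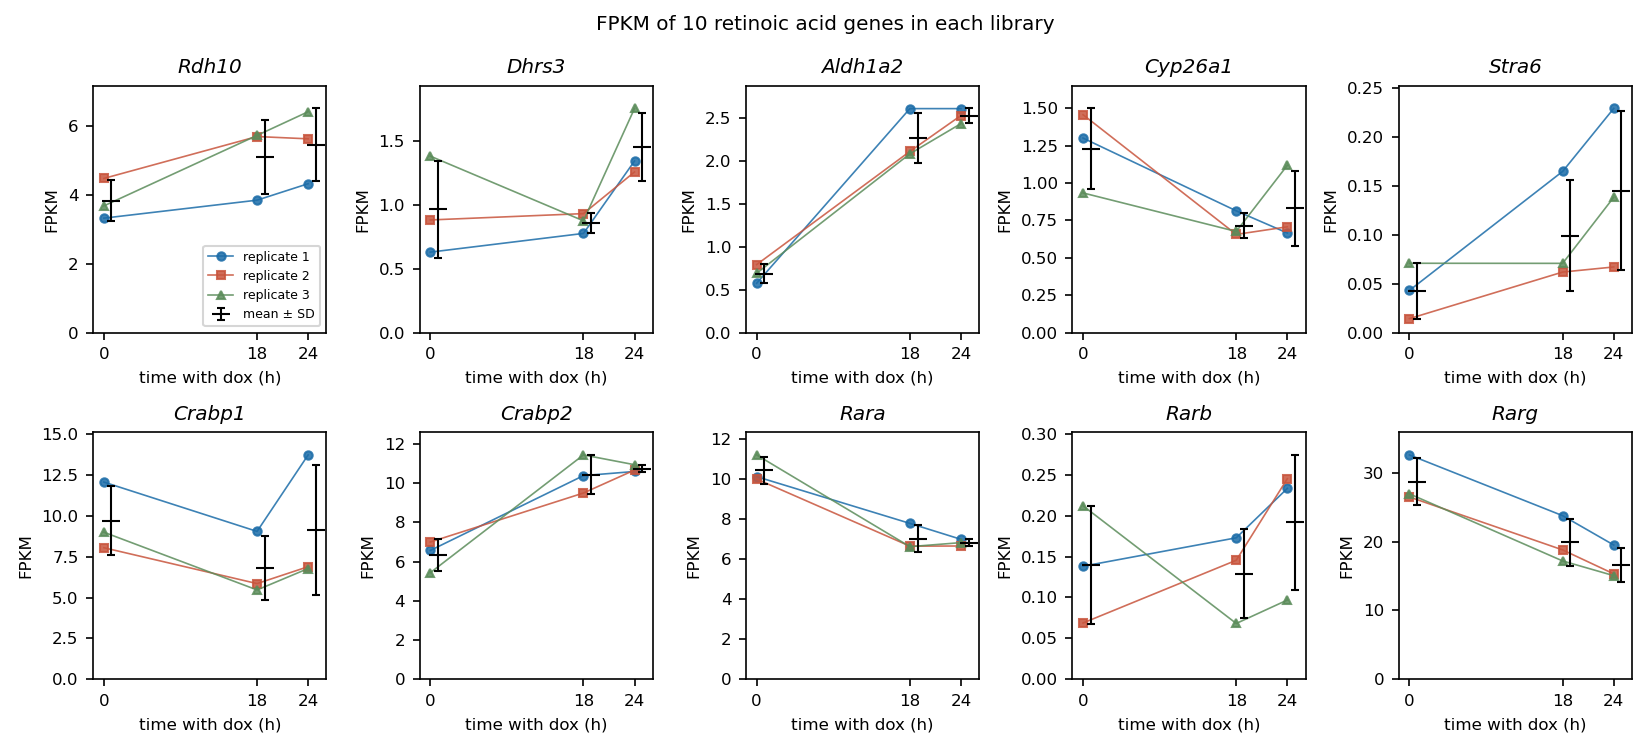
FPKM of each of the 10 genes (vertical axis, from 0, its own scale per panel) against time with dox in h (horizontal axis); coloured points joined by lines are libraries with the same replicate number, and black bars are mean ± SD of 3. Aldh1a2 and Crabp2 were higher in every library with dox than at 0 h, and Rara and Rarg were lower.

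Aldh1a2 encodes the retinaldehyde dehydrogenase RALDH2, which makes retinoic acid from retinaldehyde and is the main enzyme of this step in the early embryo. It lies at chr9:71215789-71296243 (plus strand, GRCm38, as for all loci given), and CACCTG stands in the stretch just before its start. Its FPKM at 0 h was 0.574, 0.791 and 0.691 in replicates 1, 2 and 3. At 18 h it was 2.61, 2.11 and 2.08, and at 24 h 2.61, 2.53 and 2.43. Every library with dox lay above every library without, and the 18 h and 24 h libraries overlapped. The means stood in a ratio of 3.31 after 18 h and 3.68 after 24 h. Compared with 0 h, the log2 fold-change was 1.59 after 18 h (95% interval 1.27 to 1.92, adjusted p = 0.000664) and 1.75 after 24 h (1.43 to 2.07, adjusted p = 0.000305), by limma on log2(FPKM + 0.1), with Benjamini-Hochberg adjustment over the 17951 genes whose mean FPKM reached 0.1. These values rest on 31 to 43 reads per library at 0 h and 114 to 150 with dox. A pseudocount of 1 lowered the log2 fold-change to 0.95 after 18 h, with the adjusted p still past the threshold.

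Rdh10 and Dhrs3 act in opposite directions on the preceding step. Rdh10, at chr1:16105774-16133734 (plus strand), oxidises retinol to retinaldehyde. Its FPKM was 3.32, 4.47 and 3.67 at 0 h, 3.84, 5.68 and 5.71 after 18 h and 4.31, 5.61 and 6.40 after 24 h. The groups overlapped and replicate 1 was lowest at every time, whereas each replicate was higher with dox than its own 0 h library at both times. By limma the log2 fold-change was 0.39 after 18 h (95% interval -0.05 to 0.83) and 0.49 after 24 h (0.06 to 0.93), with adjusted p of 0.245 and 0.133. With the replicate number as a block the limma adjusted p was 0.0353 and 0.0135. Without the block DESeq2 on whole reads also passed the 24 h value (adjusted p = 0.0398). Dhrs3, at chr4:144892827-144928209 (plus strand), reduces retinaldehyde back to retinol. Its FPKM was 0.630, 0.883 and 1.38 at 0 h, 0.777, 0.932 and 0.876 after 18 h and 1.34, 1.26 and 1.76 after 24 h. The 0 h libraries covered a wide range, with replicate 3 highest, and all 24 h libraries lay above all 18 h libraries. Its log2 fold-change came to -0.09 after 18 h (-0.65 to 0.47) and 0.59 after 24 h (0.03 to 1.15), with limma adjusted p of 0.854 and 0.158. Without 0 h replicate 3 the 24 h value was 0.86 (limma adjusted p = 0.0397) and the 18 h value turned to 0.18. With the replicate block the 24 h adjusted p was 0.0565 by limma and 0.0141 by edgeR, and Dhrs3 was higher at 24 h than at 0 h in 3 of 3 replicates.

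Cyp26a1, at chr19:37697798-37701536 (plus strand), encodes a cytochrome P450 that clears retinoic acid and is itself a sensitive target of the receptors. The DR5 match at -32 lies just before its start. Its FPKM was 1.30, 1.46 and 0.934 at 0 h, 0.814, 0.656 and 0.676 after 18 h and 0.666, 0.707 and 1.12 after 24 h. All 18 h libraries lay below all 0 h libraries, whereas at 24 h replicate 3 lay above its own 0 h library and the groups overlapped. Against 0 h, log2 fold-changes were -0.69 after 18 h (95% interval -1.20 to -0.18, limma adjusted p = 0.0979) and -0.53 after 24 h (-1.04 to -0.01, limma adjusted p = 0.167). Of 20 alternatives, the 18 h value passed in 1, edgeR with the replicate block (adjusted p = 0.0257), and the 24 h value in none. Read numbers were 36 to 62 per library at 0 h and 29 to 54 with dox.

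Uptake and transport gave unlike patterns. Stra6, the membrane receptor that takes up retinol from its plasma carrier, lies at chr9:58063788-58153996 (plus strand) and was at the edge of detection, with 2 to 9 reads per library at 0 h, 9 to 22 after 18 h and 10 to 34 after 24 h. Its FPKM was 0.0432, 0.0143 and 0.0710 at 0 h, 0.165, 0.0620 and 0.0709 after 18 h and 0.230, 0.0672 and 0.139 after 24 h. Groups overlapped at both times, and replicate 2 was lowest throughout. With a mean FPKM of 0.0958 it fell under the level filter and was not tested in the main fit. Without the filter limma gave a log2 fold-change of 0.74 after 24 h (adjusted p = 0.214). On whole reads the 24 h log2 fold-change was 1.75 by edgeR (adjusted p = 0.0676), 1.76 by DESeq2 (adjusted p = 0.0499) and 1.74 by edgeR with the replicate block (adjusted p = 0.00412), so that the call depends on the method. Ccdc33, on the opposite strand within the Stra6 locus, had a mean FPKM of 0.0300 or less at each time.

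Crabp1 and Crabp2 encode small cytoplasmic proteins that bind retinoic acid. CRABP2 delivers it to the receptors in the nucleus, and CRABP1 is linked to its sequestration and breakdown. Crabp2, at chr3:87948666-87953376 (plus strand), had an FPKM of 6.56, 7.00 and 5.43 at 0 h, 10.4, 9.50 and 11.4 after 18 h and 10.6, 10.7 and 10.9 after 24 h. Every library with dox was above every library without. Crabp2 was upregulated, with a log2 fold-change of 0.72 after 18 h (95% interval 0.49 to 0.95, limma adjusted p = 0.0053) and 0.76 after 24 h (0.53 to 0.99, limma adjusted p = 0.00302). Crabp1, at chr9:54764748-54773110 (plus strand), had an FPKM of 12.1, 8.05 and 9.00 at 0 h, 9.05, 5.85 and 5.46 after 18 h and 13.7, 6.89 and 6.78 after 24 h. Replicate 1 was highest at every time, each replicate was lower at 18 h than at 0 h, and the groups overlapped at both times. The fitted log2 fold-change was -0.53 after 18 h (-1.19 to 0.13, limma adjusted p = 0.298) and -0.15 after 24 h (-0.81 to 0.51, limma adjusted p = 0.785). With the replicate block the 18 h limma adjusted p was 0.0158.

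The sum of both binding proteins was 16.0 ± 2.27 FPKM at 0 h, 17.2 ± 2.06 after 18 h and 19.9 ± 3.87 after 24 h (SD, n = 3). Crabp2 made up 39.8% ± 5.94 of it at 0 h, 61.0% ± 7.17 after 18 h and 55.4% ± 10.2 after 24 h. In each library at 0 h its share was between 35.2% and 46.5%, and at 18 h between 53.4% and 67.7%. At 24 h replicate 1, in which Crabp1 was at 13.7 FPKM, had a share of 43.5%, and replicates 2 and 3 had 60.8% and 61.8%. These shares are a description and were not tested.

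Of the receptor genes, Rara fell at both times and Rarg at 24 h. Rarg, at chr15:102234938-102257517 (minus strand), encodes RARγ, the RAR with the highest FPKM in these cells. Its FPKM was 32.6, 26.5 and 26.9 at 0 h, 23.8, 18.8 and 17.2 after 18 h and 19.5, 15.3 and 15.0 after 24 h. Every library with dox was below every library without, and replicate 1 was highest at each time. On the log2 scale the fold-change was -0.79 after 24 h (95% interval -1.11 to -0.46, limma adjusted p = 0.0108). At 18 h it was -0.53 (-0.85 to -0.21) with a limma adjusted p of 0.0544, and with the replicate block 0.00108. On whole reads without the block the 18 h adjusted p was 0.0228 by edgeR and 0.00301 by DESeq2, and 8 of 21 alternatives passed. Leaving out 18 h replicate 1 or 24 h replicate 1 also took the 18 h adjusted p past the threshold, to 0.0313 and 0.0447. Rara, at chr11:98927818-98974942 (plus strand), encodes RARα, which is broadly expressed. Its FPKM was 10.1, 10.01 and 11.2 at 0 h, 7.79, 6.66 and 6.63 after 18 h and 7.00, 6.66 and 6.83 after 24 h. Again no library with dox overlapped those without. Rara was downregulated, with a log2 fold-change of -0.57 after 18 h (-0.76 to -0.38, limma adjusted p = 0.0055) and -0.61 after 24 h (-0.79 to -0.42, limma adjusted p = 0.0032).

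Rarb, at chr14:16430839-16819156 (minus strand), encodes RARβ, whose promoter with its DR5 element is a classical target of retinoic acid. It was barely expressed, with 5 to 14 reads per library at 0 h, 5 to 12 after 18 h and 8 to 19 after 24 h. Its FPKM was 0.138, 0.0687 and 0.212 at 0 h, 0.173, 0.146 and 0.0681 after 18 h and 0.234, 0.245 and 0.0968 after 24 h. The groups overlapped, and replicate 3 was highest at 0 h but lowest with dox. The estimates of log2 fold-change were -0.05 after 18 h (95% interval -0.86 to 0.76, limma adjusted p = 0.952) and 0.28 after 24 h (-0.52 to 1.09, limma adjusted p = 0.644). These intervals leave room for changes of the size of their bounds. Top2b overlaps the locus on the opposite strand at a mean FPKM of 14.9, 17.0 and 18.3 at the 3 times, and whether strand was used in the counting is not given in the sources used here.

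The summed FPKM of the RAR genes was 39.3 ± 3.25 at 0 h, 27.1 ± 4.13 after 18 h and 23.6 ± 2.68 after 24 h (SD, n = 3), from 36.6 to 42.9 in the 0 h libraries and from 22.0 to 26.7 in the 24 h libraries. Within the sum Rarg made up 72.9% ± 2.95, 73.4% ± 1.47 and 70.1% ± 2.47, Rara 26.8% ± 2.86, 26.1% ± 1.60 and 29.1% ± 2.58, and Rarb less than 1% on average at each time. The RXR genes, whose products pair with the RARs on DNA, summed to 24.1 ± 1.36, 24.0 ± 0.288 and 23.7 ± 0.854 FPKM. Rxrb supplied 75.9% to 79.3% of that on average, and Rxrg went from 8.85% ± 1.06 to 5.40% ± 1.67 and 4.51% ± 1.43. These sums and shares are a description and were not tested.

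**Figure D2:**
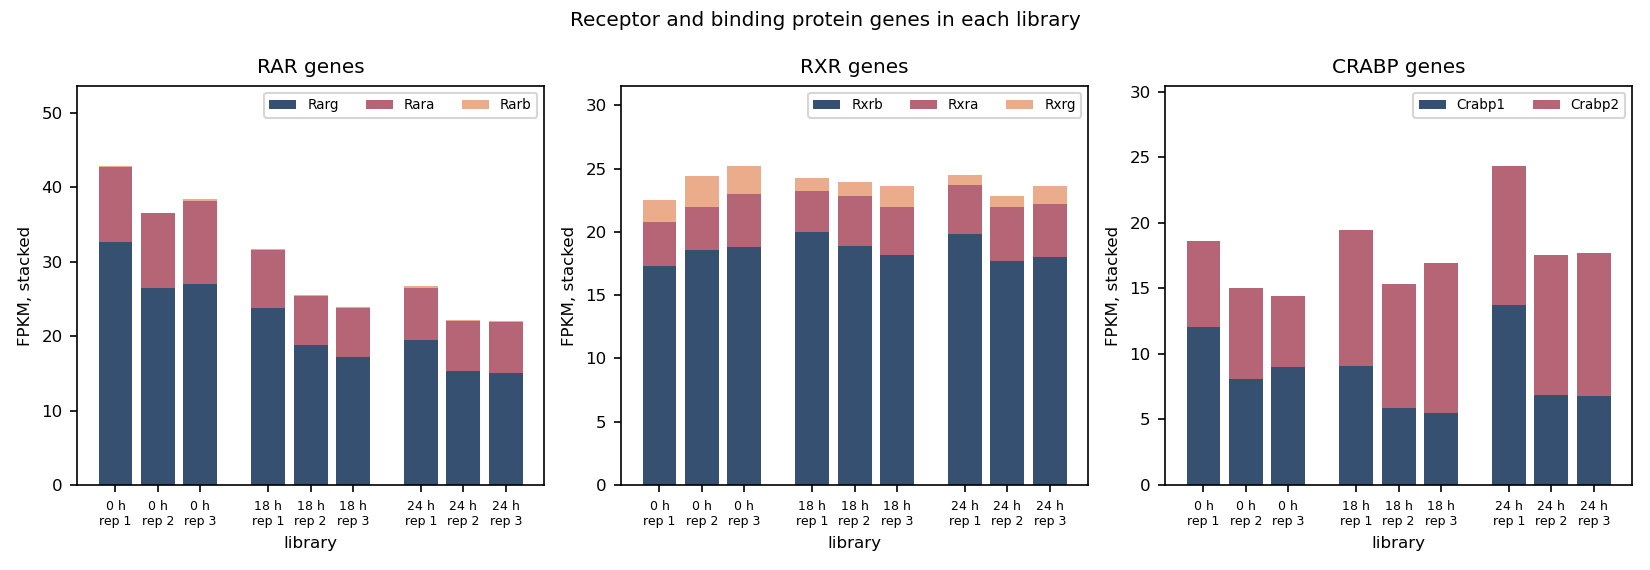
Stacked FPKM (vertical axis, from 0) of the RAR genes (left), RXR genes (middle) and CRABP genes (right) in each of the 9 libraries (horizontal axis). The RAR bars are 36.6 to 42.9 FPKM high at 0 h and 22.0 to 26.7 after 24 h, mostly Rarg and Rara, whereas the mean RXR sum was 24.1 at 0 h and 23.7 after 24 h.

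Across the 9 members tested, Aldh1a2 and Crabp2 were upregulated and Rara was downregulated at 18 h with adjusted p-values of 0.05 or less. Among all 17951 genes tested, 4.27% passed upwards and 3.72% downwards. At 24 h Aldh1a2 and Crabp2 passed upwards and Rara and Rarg downwards, against 6.52% and 5.11% of all genes. When a log2 fold-change of 1 or more in size was also required, Aldh1a2 was called at both times, where 1.33% of all genes were called upwards at 18 h and 2.07% after 24 h. The downregulated members did not reach that fold, which 0.724% of all genes reached downwards at 18 h and 0.836% after 24 h. The median log2 fold-change of the 9 members was -0.09 after 18 h and 0.28 after 24 h, where that of all genes was -0.003 and 0.004. Both comparisons share the 0 h libraries. With the replicate block 3 members passed upwards and 3 downwards at 18 h, where 10.8% and 10.7% of all genes did so, and 3 upwards and 2 downwards at 24 h, where 13.6% and 12.5% did. The members added by the block were Rdh10 at both times, and Rarg and Crabp1 after 18 h.

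**Figure D3:**
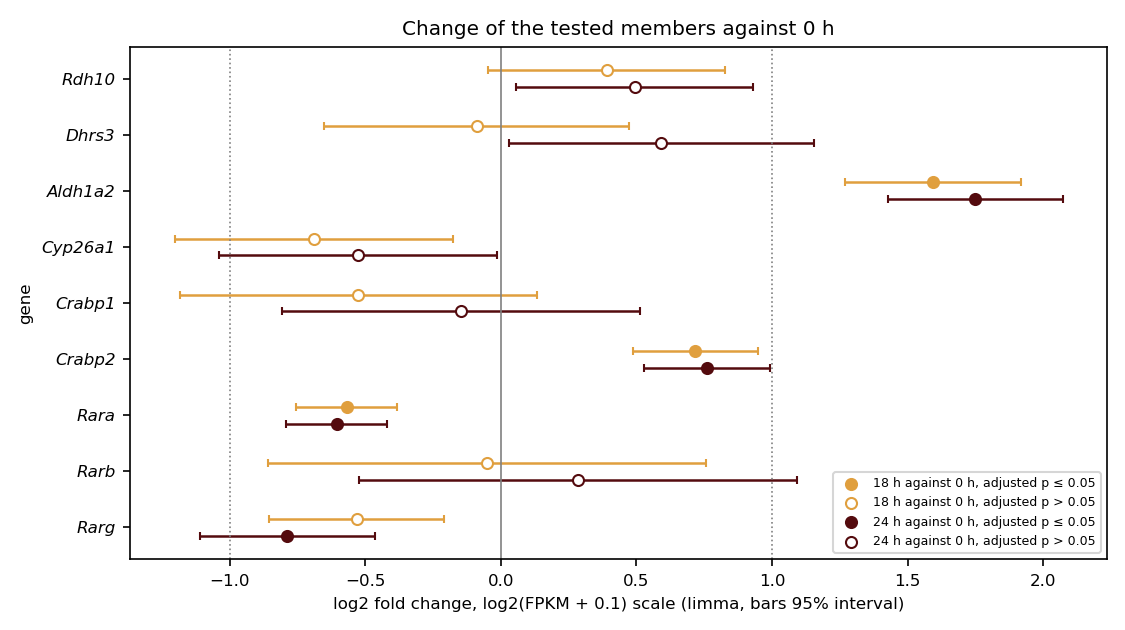
Log2 fold-change against 0 h on the log2(FPKM + 0.1) scale (horizontal axis) for the 9 members tested (vertical axis) at 18 h and 24 h; bars are 95% intervals, filled points have a limma adjusted p of at most 0.05 and dotted lines mark a log2 fold-change of 1 in either direction. Aldh1a2 is the only member tested whose points lie beyond a dotted line, at 1.59 and 1.75.

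Between 18 h and 24 h none of the 9 members passed the limma test, 1 had an unadjusted p below 0.05, and 0.0223% of all genes passed in either direction. That member was Dhrs3, with a log2 fold-change of 0.68 (95% interval 0.12 to 1.24, limma adjusted p = 0.857), higher at 24 h in 3 of 3 replicates. On whole reads edgeR and DESeq2 also passed no member. With the replicate block 0.0446% of all genes passed and none of the members did, and with the block in edgeR Rarg passed the adjusted p (log2 fold-change -0.26, adjusted p = 0.0224), which was lower at 24 h in 3 of 3 replicates. For Aldh1a2 the difference was 0.16 (-0.17 to 0.48), for Crabp2 0.04 (-0.19 to 0.28) and for Rara -0.04 (-0.22 to 0.15), which leaves room for changes of the size of these bounds.

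The rest of the pathway was followed in 69 genes in 4 lists, of which 45 were tested, with a median log2 fold-change of 0.05 after 18 h and 0.11 after 24 h. At 18 h 2 of the 45 passed the adjusted p upwards and 2 downwards, where 4.27% and 3.72% of all genes did so, and at 24 h 1 upwards and 3 downwards, against 6.52% and 5.11%. With the replicate block the counts were 3 and 7 after 18 h, against 10.8% and 10.7% of all genes, and 4 and 6 after 24 h, against 13.6% and 12.5%. Nothing particular to the lists is read from these counts. Cyp1b1 was the only gene of the 45 called with a log2 fold-change of 1 or more in size in the main test, at either time. It encodes a cytochrome P450 of the endoplasmic reticulum that can oxidise retinol and retinaldehyde, besides steroids and other substrates. Its FPKM was 1.13, 1.54 and 0.825 at 0 h, 2.64, 3.42 and 3.85 after 18 h and 3.60, 3.95 and 3.59 after 24 h. Every library with dox was above every library without. Log2 fold-changes against 0 h were 1.45 after 18 h (95% interval 0.98 to 1.92, limma adjusted p = 0.0053) and 1.63 after 24 h (1.16 to 2.10, limma adjusted p = 0.00229).

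Among 26 further retinoid enzymes 14 were tested, and besides Cyp1b1 only Rdh11 passed, downwards at 18 h. Rdh11, a retinol dehydrogenase that also reduces retinaldehyde, had a mean FPKM of 19.0 ± 1.62 at 0 h, 12.9 ± 1.52 after 18 h and 19.3 ± 0.461 after 24 h (SD, n = 3). Its log2 fold-change was -0.55 after 18 h (95% interval -0.76 to -0.35, limma adjusted p = 0.00975) and 0.03 after 24 h (-0.18 to 0.24, limma adjusted p = 0.876), and the 24 h value turned to -0.05 when libraries were centred on their medians. The most abundant enzyme of the list was Adh5, a widely expressed alcohol dehydrogenase, at a mean FPKM of 53.1 over the 9 libraries, with a log2 fold-change of -0.16 after 18 h and -0.22 after 24 h (limma adjusted p = 0.409 and 0.208). With the replicate block Adh5 passed downwards at both times (limma adjusted p = 0.0249 and 0.00564). Upwards, the block added Rdh13 at both times (log2 fold-change 0.30 and 0.25, limma adjusted p = 0.0218 and 0.0314) and Aldh1a1, a retinaldehyde dehydrogenase, after 24 h (1.27, limma adjusted p = 0.00869). Without the block their limma adjusted p was 0.0578 and 0.0779 for Rdh13 and 0.168 for Aldh1a1, and on whole reads Rdh13 passed after 18 h by edgeR (0.0412) and DESeq2 (0.0182). Aldh1a1 had 3, 16 and 17 reads at 0 h and 23, 32 and 62 after 24 h, and its 24 h value passed in 2 of 20 alternatives. Without 0 h replicate 1 that value was 0.78 (limma adjusted p = 0.435). Dhrs4, a retinal reductase, had a mean FPKM of 11.8, with -0.11 and -0.22 (limma adjusted p = 0.526 and 0.183). Of 9 carriers 6 were tested and none passed the limma test at 18 h or 24 h, with 0 and 2 at an unadjusted p below 0.05. On whole reads Stra6l passed upwards at both times by edgeR (adjusted p = 0.0414 and 0.00838) and DESeq2 (0.0248 and 0.00149). It encodes a further receptor for the plasma retinol carrier and had 5 to 13 reads per library at 0 h, 23 to 30 after 18 h and 23 to 58 after 24 h. By limma its adjusted p was 0.24 and 0.111, and 3 and 4 of 20 alternatives passed. With the replicate block limma passed Rlbp1 (adjusted p = 0.0284 and 0.00986) and Fabp5 (0.0199 and 0.0278) downwards. Fabp5, a fatty acid binding protein that also carries retinoic acid, led the carriers at a mean FPKM of 23.5, and Rbp7, a further retinol binding protein, was at 1.84.

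All 14 receptor partners and coregulators were tested. Crebbp, a coactivator with acetyltransferase activity, passed upwards at 18 h (log2 fold-change 0.37, limma adjusted p = 0.0477), and this call was lost without any single library other than 18 h replicate 1. Without the level filter the Crebbp call was lost too (limma adjusted p = 0.0678), and 7 of 21 alternatives passed. Rxrg passed downwards at 24 h, from an FPKM of 1.77, 2.43 and 2.20 at 0 h to 0.857, 0.887 and 1.45 (log2 fold-change -0.96, 95% interval -1.52 to -0.41, limma adjusted p = 0.0378). The Rxrg call was lost without any 0 h library, 24 h replicate 1 or 2, or 18 h replicate 2, with an adjusted p of up to 0.129. It was also lost without the level filter (limma adjusted p = 0.0677), and 12 of 21 alternatives passed. After 18 h the log2 fold-change of Rxrg was -0.71, with a limma adjusted p of 0.114 and, with the replicate block, 0.0221. The partners with the highest FPKM were the corepressor Ncor1 (24.0), Rxrb (18.6) and the coactivator Ncoa3 (18.4), whose log2 fold-changes at 24 h were 0.01, 0.02 and -0.15 (limma adjusted p = 0.957, 0.876 and 0.295). The values of Ncor1 and Rxrb turned to -0.07 and -0.06 when libraries were centred on their medians.

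Of 20 genes known to be induced by retinoic acid 11 were tested, and those that passed by limma without the replicate block went down. With the block 0 passed upwards and 2 downwards after 18 h, where 10.8% and 10.7% of all genes did so. After 24 h 1 passed upwards and 2 downwards with the block, where 13.6% and 12.5% of all genes did. Tgm2, the transglutaminase long used as a marker of retinoic acid response, had an FPKM of 2.62, 2.97 and 3.50 at 0 h, 1.89, 2.13 and 1.82 after 18 h and 1.71, 1.91 and 1.94 after 24 h. Its log2 fold-change was -0.61 after 18 h (limma adjusted p = 0.024) and -0.68 after 24 h (limma adjusted p = 0.0127), and the 18 h call was lost without 0 h replicate 3 or any of the 18 h libraries (adjusted p of up to 0.0921). Bhlhe40, a basic helix-loop-helix repressor that answers to many stimuli, led the list at a mean FPKM of 7.25 and passed downwards at 24 h (log2 fold-change -0.45, limma adjusted p = 0.0293), a call lost without 0 h replicate 1 or 2 or any of the 24 h libraries (adjusted p of up to 0.0978). After 18 h Bhlhe40 was at -0.31, with a limma adjusted p of 0.108 and, with the replicate block, 0.0363. The median log2 fold-change of the 11 was 0.11 after 18 h and 0.28 after 24 h. The genes that passed without the block thus lay on the other side of 0 from the median. Crebbp, Rxrg, Stra6l, Rlbp1, Rdh13 and Aldh1a1 were named after their values were seen, as were the single markers of cell types given above.

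**Figure D4:**
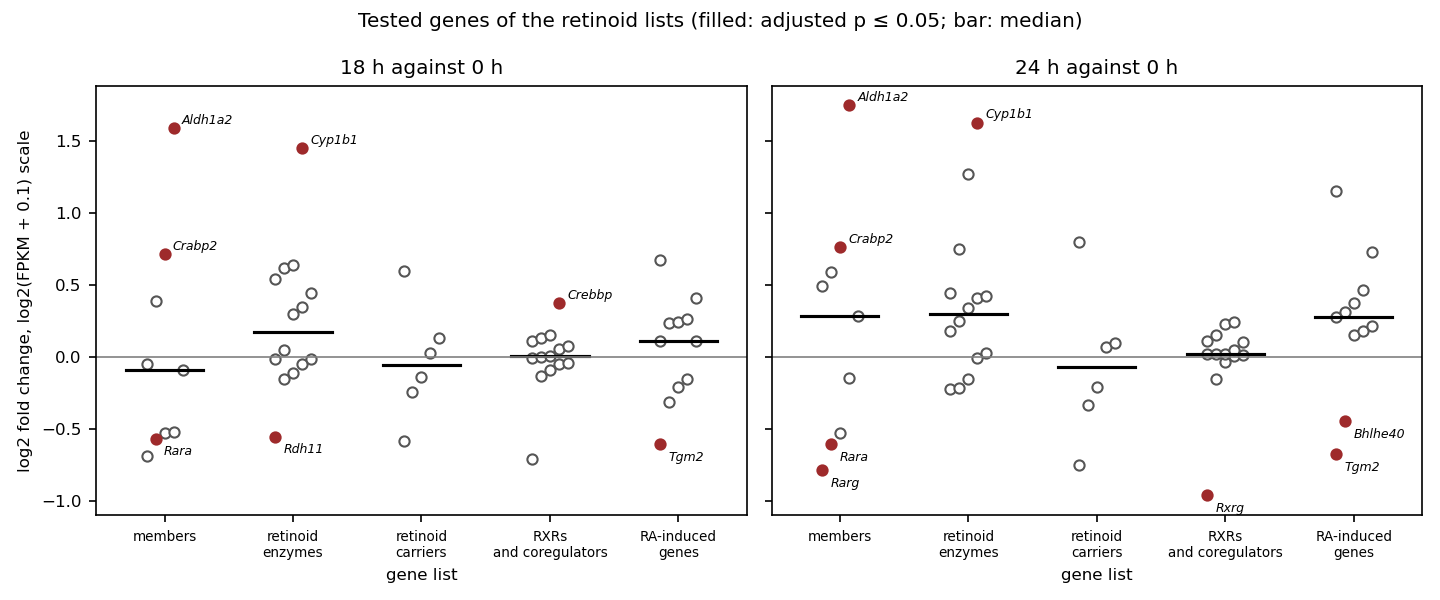
Log2 fold-change against 0 h on the log2(FPKM + 0.1) scale (vertical axis) of the tested members and of the tested genes of 4 further retinoid lists (horizontal axis), at 18 h (left) and 24 h (right). Each point is a gene, filled red and named where the limma adjusted p is at most 0.05, and bars are medians. Aldh1a2 and Cyp1b1 lie highest at both times.

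The genes whose pattern over the 9 libraries was most like that of Aldh1a2, the member with the largest log2 fold-change at 24 h, were sought among the 11892 other genes whose mean FPKM reached 1. By Pearson's r of log2(FPKM + 0.1) they were Peg3 (0.995), Frmd6 (0.993), E2f2 (0.991), Irf1 (0.990) and Cldn5 (0.989). For Rarg, the member with the lowest log2 fold-change, they were Lad1 (0.992), 9430069I07Rik (0.990), Nme2 (0.987), Eif3g (0.987) and Wdr74 (0.987). All 9 points of each correlation share the same 3 time points and replicate numbers, and the values are a description.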

How the data were processed

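Poly(A)-selected strand-specific RNA libraries were made from 9 samples of an inducible ESC line. Replicates are taken as biological, as the study's legends describe them. The treatment text of the labels gives other times, and those of the sample titles (0 h, 18 h and 24 h) were used. Per the labels, reads were trimmed with cutadapt 1.9 and the authors' own tests used edgeR 3.16.5 on GRCm38, with alignment by STAR. The Ensembl release, the counter and its handling of strand and of reads with several alignments are not given in the sources used here. The authors deposited FPKM values for 47729 genes, 19906 of them at 0 in all libraries, and a filtered table of 19210 genes that holds a CPM-like signal scaled to an effective library size. Columns of the authors' own comparisons (log2 fold-changes, p-values, false discovery rates) were not used. No per-sample column was unmatched.

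Differences were tested with limma 3.58.1 on log2(FPKM + 0.1) over all 9 libraries, with an intensity trend and without a block, for the 17951 genes whose mean FPKM reached 0.1, and p-values were adjusted by Benjamini-Hochberg over them. Fold-changes on this scale understate those of low genes. Genes were called where the adjusted p was 0.05 or less and the log2 fold-change was 1 or more in size. The deposited signal gave whole reads for 100% of 19210 values per library (tolerance 0.02), and edgeR 4.0.16 and DESeq2 1.42.0 were run on these reads as alternatives. Replicate numbers pair the libraries: the labels repeat them at each time, and deviations from the group means correlated for all 9 same-number pairs (0.211 to 0.548), against -0.399 to 0.11 for 18 others. Because deviations cancel out within a time point, the values of the 18 follow in part from those of the 9 and are no separate contrast. For genes given with a log2 fold-change, the blocked limma value is printed where it changes a call. For the cell type markers the numbers that passed with the block are given. With 3 against 3 samples an exact permutation test cannot go below 0.1. The limma step was tested on simulated data for 24 h against 0 h with 17048 genes. Of 100 genes changed by a log2 fold of 1, 87% were recovered. This share was not split by expression level, so it does not give the recovery for low members such as Cyp26a1, Rarb and Stra6. How many unchanged genes passed in the simulation is not reported here. Replicates of a time point differed by more than sampling noise (chi-square per degree of freedom 5.39 to 16.3).

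The members and lists were chosen with earlier results of these data known. Genes named by rule are the members, called genes and the 3 most abundant of each list, the 5 genes most like the extreme members, and Tcf3. Other genes were named after their values were seen. Some genes that this rule names are not reported here. Coordinates are those of GENCODE M21 on GRCm38. Of the 10 members, 8 matched RefSeq promoter windows. Alternatives were other pseudocounts (1 and 0.01), filters (none and a mean FPKM of 1), scalings, variance settings, fold minimums, tools, the replicate block and each library left out.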

Additional observations from a re-analysis of the deposited data

How the results depend on the processing

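Aldh1a2, Crabp2 and Rara at 18 h and at 24 h, and Rarg at 24 h, passed the adjusted p in 21 of 21 alternatives. The Rarg call at 24 h was narrowest without 24 h replicate 3 (limma adjusted p = 0.0499). Rarb and Stra6 had at most 34 reads in a library, and the part of depth in their calls was not tested. Of the log2 fold-changes of the members and of 15 further genes, 641 kept their side of the threshold and direction under the other settings, 40 passed only under the alternative, 11 no longer passed and 5 changed sign. When libraries were left out, the numbers were 478, 3, 23 and 18.

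The number of members called at 18 h (main value 1) was 0 with a pseudocount of 1 or a minimum log2 fold-change of 2, and 3 with no minimum fold. At 24 h (main value 1) it was 0 with a minimum of 2, 4 with no minimum, and 2 with DESeq2 or with edgeR and the replicate block, which added Stra6. Without a minimum fold, the members past the adjusted p at 18 h rose from 3 to 6 with the replicate block in limma and to 7 with it in edgeR. At 24 h they rose from 4 to 7, and between 18 h and 24 h from 0 to 1, with the block in edgeR.

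For the other retinoid genes at 18 h (main value 1) the number called was 0 with a pseudocount of 1 or a minimum log2 fold-change of 2, 4 with no minimum, 2 with edgeR or DESeq2 and 3 with edgeR and the replicate block. At 24 h (main value 1) it was 0 with a minimum of 2, 2 with a pseudocount of 0.01, quantile normalization, median centring or the replicate block in limma, 4 with no minimum, edgeR or DESeq2, and 6 with edgeR and the block. Leaving out libraries gave 1 to 2, with 2 without 24 h replicate 1 or 3.

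Over all genes, 369 were called at 18 h, and the number was 120 with a pseudocount of 1, 210 with a mean FPKM of at least 1, 1433 with no minimum fold, 67 with a minimum of 2, 583 with edgeR and 816 with edgeR and the replicate block. Leaving out libraries gave 223 to 418, lowest without 18 h replicate 3 (223) or 2 (228). At 24 h 521 were called, and the number was 151 with a pseudocount of 1, 265 with a mean FPKM of at least 1, 2088 with no minimum, 86 with a minimum of 2 and 1018 with edgeR and the block. Leaving out libraries gave 332 to 538, lowest without 24 h replicate 3. Between 18 h and 24 h 4 were called, and the number was 0 with a pseudocount of 1, a mean FPKM of at least 1 or edgeR, 1 with a pseudocount of 0.01, 2 with DESeq2, 9 with edgeR and the block, and 0 to 8 with libraries left out. The cause of these shifts was not tested.

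Values that changed sign did so without passing the test. With median centring the 24 h values were -0.0484 for Rdh11, -0.0705 for Ncor1 and -0.0563 for Rxrb, and Ncor1 was at -0.0009 with edgeR and the replicate block and at -0.0061 with DESeq2. When libraries were left out, the log2 fold-change ranged from -0.48 to 0.0249 for Crabp1 at 24 h, from -0.28 to 0.16 for Rarb at 18 h, from -0.33 to 0.18 for Dhrs3 at 18 h, from -0.0410 to 0.0800 for Rdh11 at 24 h, from -0.0234 to 0.0337 for Ncor1 at 24 h, from -0.0293 to 0.0522 for Rxrb at 24 h and from -0.11 to 0.0359 for Ncoa3 at 18 h. Between 18 h and 24 h it ranged from -0.0473 to 0.29 for Cyp26a1, from -0.0759 to 0.0393 for Rara, from -0.0220 to 0.11 for Crabp2 and from -0.0830 to 0.26 for Rdh10.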

Other observations

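The FPKM ratio of Aldh1a2, which makes retinoic acid, to Cyp26a1, which clears it, was computed after the values of both genes had been seen. It was 0.441, 0.543 and 0.740 in the 0 h libraries, 3.20, 3.21 and 3.08 after 18 h and 3.92, 3.57 and 2.18 after 24 h. The lowest ratio with dox was that of 24 h replicate 3, in which Cyp26a1 was at 1.12 FPKM.

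Rdh11 was lower in all 18 h libraries than in any library at 0 h or 24 h. Its FPKM was 17.2, 19.4 and 20.4 at 0 h, 11.7, 14.6 and 12.4 after 18 h and 19.2, 19.0 and 19.8 after 24 h, and the log2 fold-change between 18 h and 24 h was 0.58 (95% interval 0.38 to 0.79, limma adjusted p = 0.192). The adjusted p was 0.0942 by limma with the replicate block, 0.113 by edgeR, 0.000169 by edgeR with the block and 8.33e-05 by DESeq2, and 2 of 21 alternatives passed.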
